A study of Mus musculus with 4 samples.

Results

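The genes described here are 39 genes of sterol and fatty acid synthesis, listed by their known roles: 20 enzymes that make cholesterol, 6 regulators of the SREBP transcription factors, 9 enzymes that make fatty acids and 4 genes that the liver X receptor (LXR) turns on or that encode it. A gene was measured where a probe set of the array named that gene alone, which held for 37 of the 39, among 19937 genes measured so in all. Acat2 and Nr1h2 had no such probe set and were not analysed here. All 37 lay above the filter on low signal, which left 13956 genes for testing.

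The cells were primary adult neurospheres, free-floating clusters of neural stem and progenitor cells, grown from the lateral ventricle walls (the subventricular zone, SVZ) of 9 to 12 week old C57BL/6 mice. All 4 samples held cells transfected with 75 pmol of non-targeting control siRNAs and transduced for 5 h with a pCLIG virus carrying Pax6, a neurogenic transcription factor, so neither group lacks the virus or the siRNAs. The olaparib group (n = 2) received 100 nM olaparib, an inhibitor of poly(ADP-ribose) polymerases, in 0.01% DMSO from the start of the virus incubation on. The DMSO group (n = 2) received 0.01% DMSO alone. After 36 h in suspension, growth factors were withdrawn and the cells were plated on laminin 10 h before RNA was taken. The labels call the second array of each group a biological replicate but do not say whether it came from other animals. The p-values therefore measure only the spread between these samples, which may be technical. The neurospheres are a mixture of cells, and in such bulk RNA fewer cells of a type and less RNA per cell cannot be told apart.

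Cells make cholesterol from acetyl-CoA through the mevalonate pathway, which also supplies isoprenoids, and then through squalene and lanosterol. Fatty acids are made from the same acetyl-CoA, elongated and desaturated. When sterols run low in the endoplasmic reticulum, the escort protein Scap carries SREBP to the Golgi for cleavage, and the released factor turns on the enzymes of both pathways. Insig proteins hold the complex back when sterols are plentiful. Oxysterols activate LXR, which turns on Abca1 and other genes that move cholesterol out of the cell, and also Srebf1, the gene of the SREBP form that mainly drives fatty acid synthesis. In the brain, cholesterol is made locally, since it does not cross the blood-brain barrier.

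Most promoters of the sterol enzymes held 1 short element. NF-Y, a factor that often acts beside SREBP, binds the box CCAAT. In the 250 bases before each RefSeq start, searched on both strands, CCAAT stood in 16 of 17 sterol enzyme genes with a promoter entry (94.1%). It stood in 37.5% of all 27025 genes with an entry. Of the sterol enzymes that rose with olaparib (values further on), the 5 with an entry all held the box, and it is shown for each with 10 bases on either side. Each is read 5′ to 3′ on the strand where the letters are CCAAT, and the capitals mark the box. Positions are those of build GRCm38.p6, as are all RefSeq sequences here.
Idi1, chr13:8885551-8885575, minus strand: cccgggctcgCCAATcagctggagg
Lss, chr10:76531533-76531557, minus strand: gcgagctcggCCAATcagagcatca
Cyp51, chr5:4104712-4104736, minus strand: ctgtccgccaCCAATctggtcctga
Nsdhl, chrX:72918491-72918515, minus strand: atgattttgcCCAATgaggctagtc
Mvk, chr5:114444209-114444233, plus strand: aatgtttgacCCAATctgtaaagga
The boxes lay 45 to 41 bases before the start in Idi1, 62 to 58 in Lss, 29 to 25 in Cyp51, 20 to 16 in Nsdhl and 50 to 46 in Mvk. Where a window held more than 1 box, 1 is shown: Mvk held 4 others, of which the nearest to the start lay 14 to 10 bases before it, and Nsdhl held another 109 to 105 bases before its start.

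Idi1 also held another box, closer to its start, 14 to 10 bases before it. Its whole window is printed as the example of the sterol enzyme genes, on the plus strand of chr13:8885356-8885605, where both boxes read as ATTGG, in capitals.
Idi1 promoter: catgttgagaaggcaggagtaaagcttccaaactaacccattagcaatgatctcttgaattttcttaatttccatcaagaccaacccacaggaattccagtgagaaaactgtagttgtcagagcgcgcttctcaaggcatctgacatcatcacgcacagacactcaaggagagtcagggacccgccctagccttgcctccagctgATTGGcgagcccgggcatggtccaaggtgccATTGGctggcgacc
The fatty acid enzyme that rose (Acly) and the gene that fell most among the members (Abca1) held no CCAAT in either direction. The box was not confined to genes that rose, since Srebf1, which fell, held it 30 to 26 and 166 to 162 bases before its starts. Whether it goes with the direction of change was not tested. Sterol enzymes that did not rise, such as Dhcr7, held it too. The 250 bases before Acly, on the minus strand of chr11:100528001-100528250, and the 157 bases before Abca1, on the minus strand of chr4:53159989-53160145, are shown as promoters without the box.
Acly promoter: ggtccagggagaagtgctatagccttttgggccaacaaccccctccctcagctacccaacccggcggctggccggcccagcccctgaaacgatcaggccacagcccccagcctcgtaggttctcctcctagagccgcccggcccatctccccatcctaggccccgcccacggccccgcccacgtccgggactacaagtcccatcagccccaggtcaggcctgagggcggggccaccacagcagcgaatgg
Abca1 promoter: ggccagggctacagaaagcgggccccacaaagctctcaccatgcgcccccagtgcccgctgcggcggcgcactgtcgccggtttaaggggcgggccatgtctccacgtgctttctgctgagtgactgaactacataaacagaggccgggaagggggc
Among the other role groups, CCAAT stood in 4 of 5 SREBP regulators, 2 of 6 fatty acid enzymes and 1 of 3 LXR genes with an entry. A strict core of the sterol regulatory element, TCACNCCAC, stood in 1 member, Hmgcs1, as TCACCCCAC 137 to 129 bases before its start, and in 1.22% of all genes. The LXR element, written as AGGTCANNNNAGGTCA, stood in 0 of 31 members and in 4 of all genes. These matches describe letters in a short window only. No measurement of binding was analysed here.

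Values are the deposited log2 signals, and a change is the olaparib mean minus the DMSO mean on that scale. Each change was tested with limma, and genes with a Benjamini-Hochberg adjusted p under 0.05 over all genes tested are said to rise or fall. Over all genes 397 rose (2.84%) and 471 fell (3.37%). The array medians over probe sets were 6.60 to 6.68. The correlations over the genes tested were 0.996 within DMSO, 0.993 within olaparib and 0.986 to 0.988 between the groups. Genes of unrelated tissues (25 measured) had values up to 7.77, with 75% of them under 6.71. In 7 members, namely Mvd, Lss, Lbr, Ebp, Stard4, Abcg1 and Mylip, the lower of the group means was under that highest value, and of these Lss alone passed the threshold.

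The olaparib arrays differed from each other in one direction among these genes. Replicate 2 was above replicate 1 in 34 of 37 members, with a median gap of 0.14. The same held for 55.4% of all genes tested, and for 90.9% of the 2215 genes whose mean signal was at or above the members' median of 8.73. The part of this gap in the members' changes was not tested as such. The calls that altered without one of the arrays are named further on. At or above that signal 4.51% of genes rose and 3.66% fell, and both olaparib arrays were above both DMSO arrays in 32.6% and below them in 21.9%. The median change of those genes was 0.05, and in 59.6% of them the olaparib mean was the higher one.

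**Figure D1:**
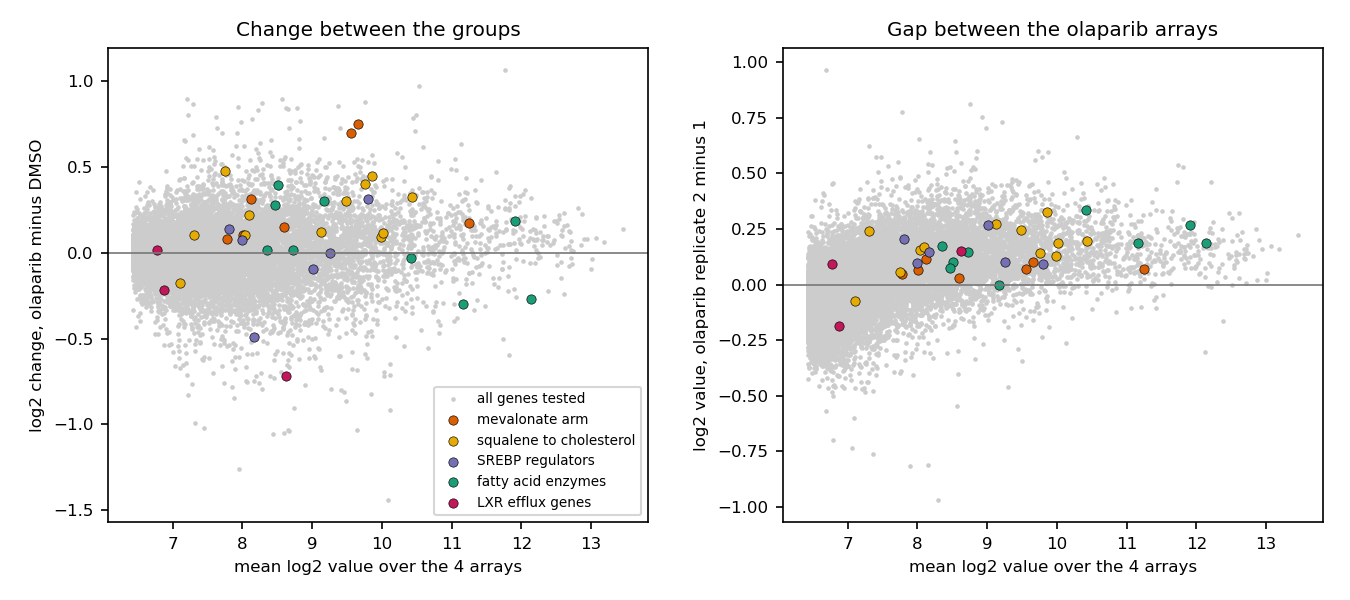
Change between the groups (left) and gap between the olaparib arrays (right), both on the log2 scale, against the mean log2 value over the 4 arrays; each point is a gene, grey for all 13956 genes tested and coloured by role for the 37 members. In the left panel Idi1 and Fdps lie at 0.75 and 0.70 and Abca1 at -0.72; in the right panel 34 of 37 members lie above 0, as do most grey points at high signal.

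Of the 37 genes, 7 rose (18.9%, against 2.84% of all genes): Idi1, Fdps, Lss, Nsdhl, Cyp51, Acly and Mvk. Another 2 fell (5.41%, against 3.37%): Abca1 and Srebf1. Thus 9 of 37 passed in either direction, against 6.22% of all genes. The remaining 28 did not pass the threshold, and 19 of the 37 had an unadjusted p under 0.05 (19.1% of all genes, 9.18% higher and 9.88% lower). The median change was 0.12, beside 0.00 over all genes tested, and the olaparib mean was the higher one in 28 members (50.5% of all genes). Without olaparib replicate 2 the members' median was 0.04, and without olaparib replicate 1 it was 0.21. Both olaparib values lay above both DMSO values in 18 members (23.2% of all genes) and below them in 6 (23.9%), and the groups overlapped in 13. Changes ran from -0.72 in Abca1 to 0.75 in Idi1.

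**Figure D2:**
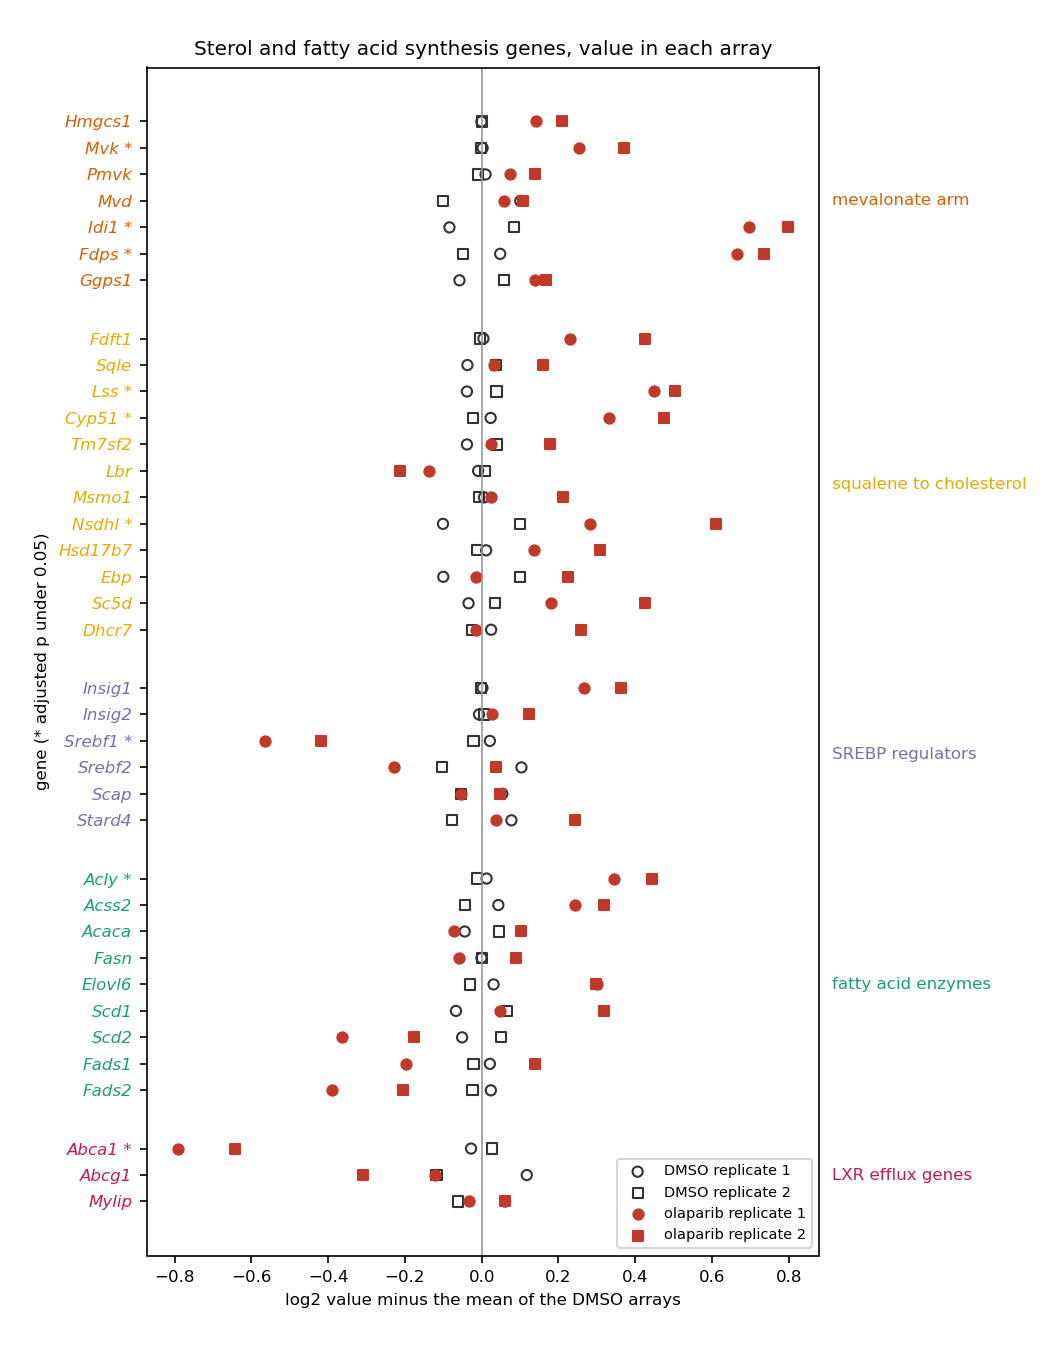
Log2 value of each of the 37 genes in each array, minus the mean of the DMSO arrays (horizontal axis), with genes listed by role; open symbols are DMSO, filled symbols olaparib, circles replicate 1 and squares replicate 2, and an asterisk marks an adjusted p under 0.05. The filled symbols of Idi1 and Fdps sit furthest right, those of Abca1 and Srebf1 furthest left, and in several genes, such as Srebf2, Scap, Fasn and Mylip, they lie on both sides of 0.

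In the enzymes from acetyl-CoA to the isoprenoids, 3 of 7 rose (2.84% of all genes) and none fell (3.37%) in limma, with a median change of 0.17. Leaving out either DMSO replicate left 1 of them past the threshold, and leaving out olaparib replicate 2 left 2. Both olaparib values exceeded both DMSO values in 6 of the 7 (23.2% of all genes). Idi1, the isomerase that converts isopentenyl to dimethylallyl diphosphate, had log2 values of 9.20 and 9.36 with DMSO and 9.98 and 10.08 with olaparib. The group means were 9.28 ± 0.12 and 10.03 ± 0.07 (SD, n = 2 each), a 1.68-fold rise (change 0.75, SE 0.12, limma adjusted p = 0.000395). Its groups were 0.61 apart at their closest, and the change was the 21st largest rise of all genes tested. A second probe set that the annotation gives to Idi1, with the same accessions, read 9.10 and 8.30 with DMSO and 9.10 and 8.81 with olaparib. There the groups overlapped, the DMSO arrays were far apart and the change was 0.25 (limma adjusted p = 0.509). The annotation does not tell which of the probe sets measures Idi1 better, so its fold, its rank and its call are uncertain. Whether the probe set used reads Idi1 itself was not tested.

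Fdps, which joins these units into farnesyl diphosphate, had values of 9.26 and 9.16 with DMSO and 9.87 and 9.95 with olaparib. Means of 9.21 ± 0.07 and 9.91 ± 0.05 gave a 1.62-fold rise (change 0.70, SE 0.11, limma adjusted p = 0.000544). It had 1 probe set and the 27th largest rise of all genes. Mvk, the kinase that phosphorylates mevalonate, read 7.96 in both DMSO arrays and 8.22 and 8.33 in the olaparib arrays. This 1.24-fold rise (change 0.31, SE 0.09) passed the threshold narrowly, with a limma adjusted p of 0.0494.

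The other 4 enzymes of this arm did not pass. Hmgcs1, which makes HMG-CoA, had a change of 0.17 (SE 0.12, limma adjusted p = 0.487), with 11.15 and 11.16 against 11.30 and 11.36. Here the DMSO arrays hardly differed and both olaparib arrays were higher by at least 0.14. Ggps1, which makes geranylgeranyl diphosphate, differed by 0.15, Pmvk, the next kinase after Mvk, by 0.11, and Mvd, the decarboxylase that yields isopentenyl diphosphate, by 0.08. Adjusted p-values of these 3 in limma were 0.465 to 0.727, and in Mvd the groups overlapped.

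In the 12 enzymes from squalene to cholesterol, 3 rose (2.84% of all genes) and none fell (3.37%) in limma, with a median change of 0.17. Without olaparib replicate 2 that median was 0.08, and without olaparib replicate 1 it was 0.28. Without DMSO replicate 1 none rose at the threshold, and without DMSO replicate 2, 1 did. Both olaparib values were higher in 7 (23.2% of all genes), both were lower in 1 (23.9%), and the groups overlapped in 4. Lss, the cyclase that forms lanosterol, had values of 7.48 and 7.56 with DMSO and 7.97 and 8.02 with olaparib. That is a 1.39-fold rise from 7.52 ± 0.05 to 7.99 ± 0.04 (SD, n = 2 each; change 0.48, SE 0.09, limma adjusted p = 0.00168). Cyp51, the lanosterol demethylase, rose 1.32-fold, from 9.58 and 9.54 to 9.89 and 10.03 (change 0.40, SE 0.11, limma adjusted p = 0.0387). Nsdhl, a dehydrogenase that acts on the sterol ring after it, rose 1.36-fold, from 9.53 and 9.73 to 9.91 and 10.24 (change 0.45, SE 0.13, limma adjusted p = 0.0409). Nsdhl had the widest spread of the 3, and its higher DMSO value lay 0.18 below its lower olaparib value. Without olaparib replicate 2 its change was 0.28.

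Fdft1, squalene synthase and the first enzyme committed to sterols, had 10.28 and 10.27 with DMSO and 10.50 and 10.70 with olaparib. Its change of 0.33 (SE 0.12) did not pass (limma adjusted p = 0.122). The second Fdft1 probe set gave 9.78 and 9.89 against 10.10 and 10.35, a change of 0.39. In both probe sets the olaparib arrays were the higher ones. Sc5d, a desaturase near the end of the pathway, differed by 0.30 (SE 0.12, limma adjusted p = 0.144), and Hsd17b7, a ketosteroid reductase, by 0.22 (SE 0.09, limma adjusted p = 0.194). Msmo1, the sterol methyl oxidase that works before Nsdhl, differed by 0.12 (limma adjusted p = 0.690).

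Sqle, the squalene epoxidase and a rate-limiting step, had 9.90 and 9.97 with DMSO and 9.97 and 10.10 with olaparib, so the groups overlapped (change 0.09, SE 0.12, limma adjusted p = 0.762). Overlap was also seen in Tm7sf2 (a sterol reductase), Ebp (a sterol isomerase) and Dhcr7 (the reductase that ends one branch of the pathway), which differed by 0.10 to 0.12. Lbr, a nuclear envelope protein that also reduces the sterol ring, was the 1 sterol enzyme with a lower olaparib mean: 7.18 and 7.20 against 7.05 and 6.98. Its change of -0.18 (SE 0.08) did not pass (limma adjusted p = 0.209), and its values lay in the range of the unrelated tissue genes. Of the 19 sterol enzymes together, 6 rose (31.6%, against 2.84% of all genes), none fell, and at an unadjusted limma p under 0.05 there were 9 higher and 1 lower (Lbr), beside 9.18% and 9.88% of all genes.

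**Figure D3:**
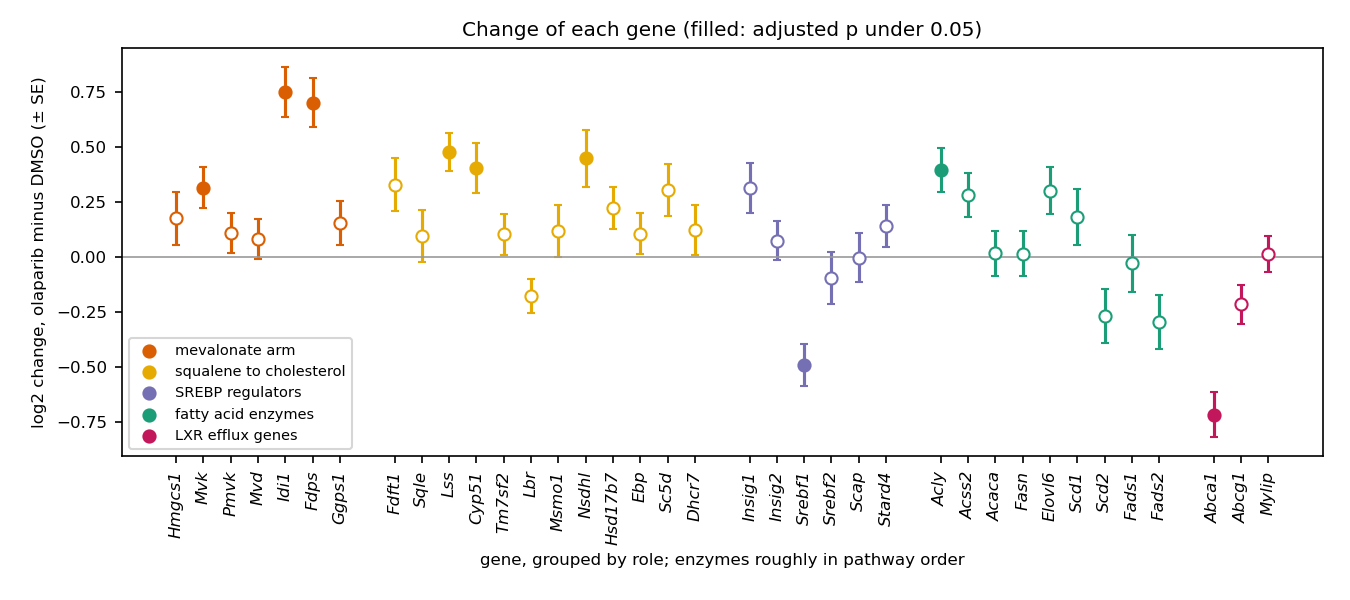
Change of each of the 37 genes, olaparib minus DMSO on the log2 scale (vertical axis), with limma standard errors as bars; genes are grouped by role, and filled points have an adjusted p under 0.05. Of 19 sterol enzymes 18 lie above 0, with Idi1 (0.75) and Fdps (0.70) on top and Lbr (-0.18) below, while fatty acid enzymes lie on both sides of 0.

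Of the 6 SREBP regulators none rose (2.84% of all genes) and 1 fell (3.37%) in limma, with a median change of 0.04. At an unadjusted p under 0.05, 1 was higher (Insig1) and 1 lower (Srebf1), beside 9.18% and 9.88% of all genes. Srebf1, which encodes SREBP-1, had 8.43 and 8.39 with DMSO and 7.84 and 7.99 with olaparib. It fell 1.41-fold, from 8.41 ± 0.03 to 7.92 ± 0.10 (SD, n = 2 each; change -0.49, SE 0.10, limma adjusted p = 0.00306), and its groups were 0.40 apart. Srebf2, which encodes SREBP-2, the main activator of the sterol enzymes, had 9.16 and 8.96 with DMSO and 8.83 and 9.10 with olaparib. These values overlapped, and the change of -0.10 (SE 0.12, limma adjusted p = 0.763) turned to 0.0079 without DMSO replicate 1 and to 0.04 without olaparib replicate 1. The difference between the Srebf1 and Srebf2 changes was not tested. These are levels of mRNA and say nothing about cleavage of the proteins.

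Insig1, which retains the complex in the endoplasmic reticulum and is itself an SREBP target, read 9.65 in both DMSO arrays and 9.91 and 10.01 in the olaparib arrays. The change of 0.31 (SE 0.11) did not pass (limma adjusted p = 0.114), and it did so in 4 of 15 alternative settings. Its relative Insig2 differed by 0.07 (limma adjusted p = 0.760). Scap, the escort protein, had equal group means of 9.26 and a limma adjusted p of 0.997. Stard4, a carrier of cholesterol in the cytosol, differed by 0.14 (limma adjusted p = 0.482) with overlapping groups.

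Of the 9 fatty acid enzymes 1 rose (2.84% of all genes) and none fell (3.37%) in limma, and the median change was 0.02. At an unadjusted p under 0.05, 3 were higher (Acly, Acss2 and Elovl6; 9.18% of all genes) and 2 lower (Scd2 and Fads2; 9.88%). Acly, which cleaves citrate into acetyl-CoA in the cytosol, had 8.33 and 8.30 with DMSO and 8.66 and 8.76 with olaparib. The 1.31-fold rise from 8.32 ± 0.02 to 8.71 ± 0.07 (SD, n = 2 each) passed the threshold (change 0.39, SE 0.10, limma adjusted p = 0.0196). Acss2, which makes acetyl-CoA from acetate, read 8.37 and 8.28 against 8.57 and 8.65 (change 0.28, SE 0.10, limma adjusted p = 0.103). The acetyl-CoA they yield feeds sterols as well as fatty acids. In both genes the olaparib arrays were above the DMSO arrays, but Acly alone passed.

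In the enzymes that build the chain the changes were smaller, apart from Elovl6. Acaca, the carboxylase that makes malonyl-CoA, had 8.30 and 8.39 with DMSO and 8.27 and 8.45 with olaparib (change 0.02, SE 0.10, limma adjusted p = 0.971). Its second probe set gave -0.14, and under other settings the sign of Acaca varied. Fasn, fatty acid synthase, read 8.72 in both DMSO arrays and 8.66 and 8.81 with olaparib (change 0.01, SE 0.10, limma adjusted p = 0.974), with a sign that also varied between settings. Elovl6, which elongates palmitate, read 9.05 and 8.99 against 9.32 in both olaparib arrays (change 0.30, SE 0.11). It did not pass (limma adjusted p = 0.109).

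The desaturases went in both directions without passing. Scd1, the first of the stearoyl-CoA desaturases, had 11.76 and 11.89 with DMSO and 11.87 and 12.14 with olaparib (change 0.18, SE 0.13, limma adjusted p = 0.500). Scd2, its paralog that is prominent in the brain, had 12.23 and 12.33 against 11.91 and 12.10 (change -0.27, SE 0.12, limma adjusted p = 0.228). Scd1 overlapped between the groups, whereas in Scd2 both olaparib arrays were lower; as close paralogs, they may share hybridisation. Fads2, which starts the synthesis of polyunsaturated fatty acids, was also lower in both olaparib arrays, with 11.34 and 11.29 against 10.92 and 11.11 (change -0.30, SE 0.12, limma adjusted p = 0.175). Fads1, the desaturase that follows it, had a change of -0.03 (limma adjusted p = 0.953), and 0.14 without olaparib replicate 1. With quantile or cyclic loess normalization, Scd2 and Fads2 passed as lower.

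Of the 3 LXR genes measured 1 fell (3.37% of all genes) and none rose (2.84%) in limma, with a median change of -0.21. At an unadjusted p under 0.05, 2 were lower (Abca1 and Abcg1; 9.88% of all genes) and 0 higher (9.18%). Abca1, the transporter that loads cholesterol onto apolipoproteins, had 8.95 and 9.01 with DMSO and 8.19 and 8.34 with olaparib. It fell 1.64-fold, from 8.98 ± 0.04 to 8.26 ± 0.11 (SD, n = 2 each; change -0.72, SE 0.10, limma adjusted p = 0.000176). The groups were 0.61 apart, and the change was the 30th largest fall of all genes tested. Abcg1, a related exporter, read 7.11 and 6.87 against 6.87 and 6.68 (change -0.21, SE 0.09, limma adjusted p = 0.181). Here the lower DMSO value and the higher olaparib value almost met. Mylip, a ligase that sends lipoprotein receptors to breakdown, differed by 0.01 (limma adjusted p = 0.968). Both Abcg1 and Mylip had values close to those of unrelated tissue genes, where a change can be missed.

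**Figure D4:**
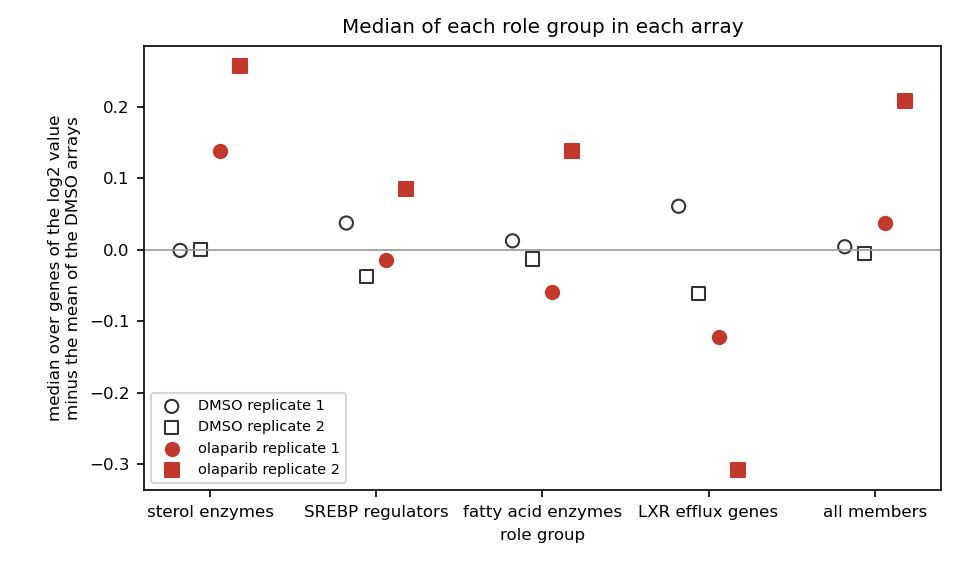
Median over the measured genes of each role group of the log2 value minus the mean of the DMSO arrays (vertical axis), for each array; open symbols are DMSO, filled symbols olaparib, circles replicate 1 and squares replicate 2. For the sterol enzymes the olaparib arrays stand at 0.14 and 0.26 and the DMSO arrays at 0.00, while for the fatty acid enzymes the olaparib arrays lie on either side of 0, at -0.06 and 0.14.

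Set side by side by array, the median of the 19 sterol enzymes relative to the DMSO mean was 0.14 and 0.26 in olaparib replicates 1 and 2. The SREBP regulators stood at -0.01 and 0.08, the fatty acid enzymes at -0.06 and 0.14, and the LXR genes at -0.12 and -0.31. Of these 4 groups, the sterol enzymes had both olaparib medians above both DMSO medians, the LXR genes had both below, and the other two overlapped. The differences between role groups were not tested, and the LXR median rests on 3 genes. Since each group has 2 arrays, these values are also the medians that remain when the other olaparib array is left out. Olaparib replicate 2 was above replicate 1 in 18 of 19 sterol enzymes, 6 of 6 regulators, 8 of 9 fatty acid enzymes and 2 of 3 LXR genes.

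These calls depend on how the spread is estimated and on the 4 arrays. When all 21704 probe sets above the filter, with or without a gene, entered 1 fit, no member passed (limma, smallest adjusted p 0.0619, in Abca1; 15 members at an unadjusted p under 0.05). In that fit 1 gene rose (0.00717%) and 11 fell (0.0788%) in all. Without DMSO replicate 1, Fdps and Abca1 passed, and limma adjusted p-values of the other 7 called members were 0.0583 (Idi1) to 0.715 (Nsdhl). Without DMSO replicate 2, Idi1, Lss, Abca1 and Srebf1 passed, Fdps had 0.0563, and Nsdhl, Acly, Mvk and Cyp51 had 0.179 to 0.504. Without olaparib replicate 2, Mvk (0.0682) and Nsdhl (0.0652) were lost, with changes of 0.25 and 0.28, and Elovl6 (0.30), Fads2 (-0.39) and Scd2 (-0.36) passed. Without olaparib replicate 1 all 9 passed, and so did Acss2 (change 0.32), Elovl6 (0.30), Fdft1 (0.43), Hsd17b7 (0.31), Insig1 (0.36), Sc5d (0.43) and Scd1 (0.32) as higher and Abcg1 (-0.31) as lower. In these 4 settings the spread came only from the group that kept both arrays, and the count of all genes called moved too (given further on). Calls gained or lost there are thus not particular to the members. Abca1 passed in 14 of 15 alternative settings, Fdps, Lss and Srebf1 in 13, Idi1 in 12, Acly in 11, Cyp51 in 10, Nsdhl in 9 and Mvk in 8.

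Other genes of these pathways, in 3 lists, went in both directions: of 58 tested, 5 rose and 5 fell (2.84% and 3.37% of all genes). In the list of other sterol and SREBP genes, 15 of 25 were tested, none rose and 1 fell in limma, with a median change of -0.09. At an unadjusted limma p under 0.05, 0 were higher (9.18% of all genes) and 4 lower (9.88%). Erlin2, which takes part in the turnover of sterol-regulated proteins in the endoplasmic reticulum, fell from 8.94 and 9.06 to 8.25 and 8.56 (change -0.60, SE 0.11, limma adjusted p = 0.00254, and 0.0621 without DMSO replicate 2). The largest change upward in that list was 0.06.

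In the list of other fatty acid and lipid genes, 24 of 27 were tested, 2 rose and 3 fell, with a median change of -0.01. Elovl7, an elongase, rose from 7.34 and 7.39 to 7.81 and 7.79 (change 0.43, SE 0.08, limma adjusted p = 0.00264, and 0.0662 without DMSO replicate 1). Slc25a1, the mitochondrial carrier that exports the citrate Acly uses, rose from 8.89 and 8.86 to 9.11 and 9.55 (change 0.45, SE 0.13, limma adjusted p = 0.0353). Without olaparib replicate 2 its change was 0.23 (limma adjusted p = 0.114), and without either DMSO replicate it did not pass either (0.272 and 0.299). The 3 that fell were Elovl2, an elongase of polyunsaturated fatty acids, Gpam, which starts glycerolipid synthesis, and Hacd3, a dehydratase of chain elongation. Elovl2 fell from 8.34 and 8.39 to 7.72 and 7.83 (change -0.59, limma adjusted p = 0.000461). Gpam fell from 8.94 and 8.98 to 8.22 and 8.40 (change -0.65, limma adjusted p = 0.000481), and Hacd3 from 9.08 and 9.30 to 8.61 and 8.79 (change -0.49, limma adjusted p = 0.0116, and 0.376 without DMSO replicate 2).

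In the list of other LXR and cholesterol handling genes, 19 of 22 were tested, 3 rose and 1 fell, with a median change of -0.08. Apod, an apolipoprotein made by glia, rose from 7.17 and 7.28 to 7.89 and 8.14 (change 0.79, SE 0.09, limma adjusted p = 2.49e-05). Scarb1, a receptor for high-density lipoprotein, rose by 0.42 (limma adjusted p = 0.0249), and its change was 0.26 without olaparib replicate 2 (0.0817). It did not pass without DMSO replicate 2 either (0.436). Rxra, a partner of LXR in the heterodimer, rose by 0.29 (limma adjusted p = 0.0414), and it did not pass without DMSO replicate 1 (0.153), DMSO replicate 2 (0.436) or olaparib replicate 2 (0.110). Clu, a lipid-binding chaperone secreted by astrocytes, fell from 10.03 and 10.00 to 9.38 and 9.67 (change -0.49, limma adjusted p = 0.0190), and did not pass without DMSO replicate 1 (0.345) or 2 (0.242). Like Abca1, it was lower in both olaparib arrays. In the fit over all probe sets none of these 10 genes passed. Calls in these 3 lists moved when 1 array at a time was left out, as did those over all genes. With olaparib replicate 1 left out the medians of the 3 lists were -0.03, 0.03 and -0.01, as against -0.18, -0.04 and -0.07 with replicate 2 left out.

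Markers of the cell types that such cultures can hold also moved, and their part in the changes above was not tested. Of 18 immature neuron markers tested 8 fell (3.37% of all genes) and 1, Gap43, rose (2.84%), with a median change of -0.29. Relative to the DMSO mean of each gene, their median was -0.40 and -0.23 in olaparib replicates 1 and 2. Without DMSO replicate 1 or 2 their median change was -0.27 and -0.32, and in the fit over all probe sets 2 of them fell. Of 15 astrocyte and neural stem cell markers 3 fell (Gfap, Aqp4 and Fgfr3) and none rose in limma, and the median change was -0.10. At an unadjusted limma p under 0.05, 1 was higher (9.18% of all genes) and 6 lower (9.88%). Without DMSO replicate 1 or 2 the median change of these markers was -0.06 and -0.13. Relative to the DMSO mean of each gene, their median was -0.20 in olaparib replicate 1 and -0.0036 in replicate 2, so the lower median of the list rests on replicate 1. Gfap, the astrocyte filament protein, fell from 10.16 and 10.15 to 8.89 and 9.35 (change -1.03, SE 0.13, limma adjusted p = 6.12e-05). In the fit over all probe sets no astrocyte and neural stem cell marker passed (limma adjusted p = 0.0658 in Gfap). With all 4 arrays in the fit, 1 of 11 oligodendrocyte lineage markers rose and none fell. It was Cspg4, a marker of their precursors (change 0.33, limma adjusted p = 0.0122). Changes in this list ran from -0.23 to 0.33, and calls in both directions appeared when either olaparib array was left out. At an unadjusted limma p under 0.05, 4 were higher (9.18% of all genes) and 1 lower (9.88%). None of these markers passed in the fit over all probe sets. Their median relative to DMSO was 0.16 and 0.04 in the olaparib replicates. The calls of Gap43 and Cspg4 were lost without either DMSO replicate (limma adjusted p 0.0791 to 0.199), and Fgfr3 was lost without DMSO replicate 1 (0.628) or olaparib replicate 1 (0.0542).

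Markers of microglia, of vessels and fibroblasts and of ependymal cells gave 0 calls in limma among 4, 4 and 6 tested (6.22% of all genes). At an unadjusted limma p under 0.05 there were 1, 0 and 1 (19.1% of all genes). The median levels of these 3 lists were 6.34, 6.39 and 6.66, beside 6.44 for genes of unrelated tissues.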

How the data were processed

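The deposited table holds the authors' log2 value of each of 34760 probe sets on 4 Affymetrix mouse gene arrays, 1 per sample. Per the labels' protocols, 40 ng of RNA was amplified. Background correction, normalization and array batches are not given in the sources used here. Probe sets were named from the platform annotation: 21640 named 1 gene, 1321 several and 11799 none listed, and the first kind was used. Of 19937 genes, 19855 had a current RefSeq entry. Where a gene had several probe sets, the one with the highest mean over the arrays stood for it. Genes above the 30th percentile (6.42) were tested with lmFit and eBayes (trend) (limma 3.58.1, R 4.3.3). The tests were two-sided, and an adjusted p (Benjamini-Hochberg) under 0.05 was the threshold. Every adjusted p comes from limma, with 2 residual degrees of freedom and 18.1 from the prior. An exact permutation test of 2 against 2 could not go below 0.333.

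The members, the lists of other pathway genes and of cell type markers, and the settings were chosen with earlier results of these data known. All members were named. Of the other pathway genes, those past the threshold were named, at most 4 per list and direction, and markers past the threshold were named where few. Lists were described by counts and medians, with no test. Promoters are RefSeq's, of GRCm38.p6. Of 39 members 31 had an entry, with 39 starts. Bases within a gene's span were not printed. Plots used matplotlib 3.10.9 (Python 3.11.15). The alternatives were other filters, normalizations, variance settings, probe set rules and thresholds, and leaving out each array. Without an array, the lone sample of its group is assumed to vary like the other group.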

Additional observations from a re-analysis of the deposited data

How the results depend on the processing

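For all 9 members that passed the threshold, the direction of change held with quantile normalization and cyclic loess. It also held in both Idi1 probe sets. In the remaining settings the direction was fixed in advance. They kept the same values, shifted all changes equally by far less than any called change (median centring), or left out 1 array where the groups did not overlap. With all probe sets in the fit 0 members rose and 0 fell, and over all genes 1 rose and 11 fell. Without a filter 4 members and 257 genes rose, and with median centring 3 members rose. With cyclic loess 11 members rose, 4 members fell and 732 genes fell, and with quantile normalization 4 members and 774 genes fell. At an adjusted p of 0.1, 606 genes rose and 715 fell. Leaving out 1 array at a time gave 1 to 14 members and 97 to 1274 genes higher, and 1 to 4 members and 161 to 1032 genes lower. Without an array of DMSO the spread comes from the olaparib pair alone, and without an array of olaparib from the DMSO pair alone.

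The median change of the sterol enzymes was 0.14 to 0.26 when leaving out 1 array at a time, that of the fatty acid enzymes -0.059 to 0.14 and that of the LXR efflux genes -0.33 to -0.10. The LXR median was -0.47 with a filter at the 50th percentile, which removes Mylip. The sign turned in members near 0. Over the settings that left out 1 array at a time, the change ran from -0.018 to 0.18 in Mvd, from -0.014 to 0.23 in Ebp and from -0.015 to 0.26 in Dhcr7. It ran from -0.23 to 0.038 in Srebf2, from -0.057 to 0.050 in Scap, from -0.072 to 0.10 in Acaca, from -0.059 to 0.088 in Fasn, from -0.20 to 0.14 in Fads1 and from -0.048 to 0.075 in Mylip. Quantile normalization turned Acaca (-0.0049) and Fasn (-0.0038), and cyclic loess Fasn (-0.0047). Acaca was -0.064 as the mean of its probe sets and -0.14 in the second one. The cause of these differences was not tested. No paired analysis was possible because the labels pair no arrays. Signal in the range of unrelated tissue genes limits Mvd, Lss, Lbr, Ebp, Stard4, Abcg1 and Mylip, of which Lss passed the threshold. Having 2 arrays a group limits every value.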
